A study of Bos taurus with 9 samples.

Results

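The cytosolic ribosome, the machine that reads mRNA and builds protein, was followed through its protein genes in cloned cattle embryos. Genes were taken as members when their symbol in any deposited table was RPL or RPS followed by a number (with the letter and number endings those families use) or was RPLP0, RPLP1, RPLP2 or RPSA. The rule found 91 gene rows of the 17258 annotated rows in all, 55 for the large subunit and 36 for the small subunit. These rows carry 83 symbols, 50 of the large and 33 of the small subunit, because 7 symbols stand on 15 rows. A total of 89 rows were listed in all 9 libraries. The other 2, RPS29 and a second RPS27L row, were listed in the morula libraries.

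The embryos (Bos taurus, breed given as Holstein) were clones produced by somatic cell nuclear transfer (SCNT). In this procedure an egg cleared of its own chromosomes is fused with a body cell, here a cultured fibroblast from 1 Holstein fetus, and is then activated chemically. The 3 groups hold 3 libraries each, and all come from SCNT embryos. They are KDM6A morulae, whose embryos were injected with mRNA for wild-type bovine KDM6A 1 h after activation; control morulae, whose embryos were not injected; and 8-cell embryos, labelled control as well. Each morula library is a pool of 5 embryos collected on day 5, while the labels give no collection day for the 8-cell embryos. KDM6A is a demethylase that removes the silencing mark H3K27me3, and the series asks what supplying it does to reprogramming. Since the controls received no injection of any kind, the mRNA and the act of injection cannot be told apart. The 8-cell libraries were taken from an earlier series, so the stage of the embryos and the series they came from cannot be told apart either. Whether pools of a group came from separate oocyte collections is not in the labels. The p-values therefore cover only the spread between these libraries, which may be technical.

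Ribosomes are built in the nucleolus from ribosomal RNA and about one copy each of a large set of proteins, and the small subunit decodes mRNA while the large subunit joins amino acids. In most cells the mRNAs of these proteins are among the most abundant, and they share a pyrimidine tract at their start (the TOP motif) through which their translation is adjusted together. A mammalian egg carries a stock of maternal ribosomes and mRNA, and in cattle the embryo's own genome takes over transcription at about the 8-cell stage. A few ribosomal proteins have close relatives, paralogs, that can take their place in the ribosome or act outside it.

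Values are FPKM, fragment counts scaled for transcript length and library size, so levels are relative to the other RNA in the same library. Sequencing depth is unknown, and no counting intervals can be given. Summed FPKM over all rows of a library, including those without an annotated gene, ran from 820346 to 1022423. KDM6A itself stood at 10.7, 13.9 and 10.7 FPKM in the control morulae, 35.7, 87.6 and 79.4 in the KDM6A morulae, and 6.13, 9.41 and 10.7 in the 8-cell embryos, so each injected pool held more KDM6A RNA than any other. Of 11 morula and early lineage markers found, summed FPKM ran from 494 to 1068 in the 6 morula libraries and from 136 to 206 in the 8-cell libraries. Of these markers 8 were higher in control morulae than in 8-cell embryos, and 3 were lower: NANOG, GATA6 and ATP1B1. The 11 oocyte markers found summed to 38.7 to 504 in control morulae, 129 to 207 in KDM6A morulae and 3837 to 9168 in 8-cell embryos. Most of the 8-cell sums was BTG4, at 3360, 8658 and 5716 FPKM, and OOEP overlapped between the stages. The 14 donor fibroblast markers summed to 118 to 191 in morulae and to 37 to 84.2 in 8-cell embryos. FN1 was the highest of them in morulae, at 49.8 to 124, and had a mean of 0.617 FPKM in 8-cell embryos. Of 8 donor fibroblast markers tested, 3 were higher in control morulae than in 8-cell embryos (37.5%; 42.7% of all genes). A further 2 were lower (25%; 27.1% of all genes), so the sums do not show a shift of the whole list. The 9 cumulus and granulosa markers found summed to 10.5 to 16 in morulae and to 21.5 to 39.1 in 8-cell embryos. No marker that was found was at 0 in all 9 libraries. In bulk pools like these, fewer cells of a type and less RNA per cell cannot be told apart.

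Many of the ribosomal protein genes stood at high levels. In control morulae 70 of 91 rows had a mean of at least 1000 FPKM (76.9%, against 1.12% of all 16713 annotated rows), in KDM6A morulae 67 of 91 (73.6%, against 1.11%) and in 8-cell embryos 42 of 89 (47.2%, against 0.810% of 16674). A few rows were low, with a mean under 10 FPKM for 3 rows in each morula group and for 4 in 8-cell embryos. Together the 89 shared rows summed to 166436, 161611 and 181798 FPKM in the 3 control libraries, to 150075, 166874 and 172389 in the KDM6A libraries, and to 113086, 90329.8 and 87623 in the 8-cell libraries. Every morula library lay above every 8-cell library, and the ranges of the 2 morula groups overlapped. Shares were taken of the summed FPKM of the 16129 annotated rows listed in all 9 libraries. The members took 17.8% ± 0.699 (SD, n = 3) of control morulae, 17.9% ± 1.51 of KDM6A morulae and 11.5% ± 1.60 of 8-cell embryos. Leaving the 13 mitochondrial genes out of the total gave 20.5%, 20.5% and 12.9%.

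Both subunits were higher in morulae, the large one by the larger fold. Its 55 rows summed to 56823, 44403 and 43789 FPKM in the 8-cell libraries and to 90291, 86122 and 97831 in the control morulae, a 1.89-fold higher mean. The 34 small subunit rows summed to 56263, 45927 and 43834 in the 8-cell libraries and to 76145, 75489 and 83966 in the control morulae, 1.61-fold higher. The ratio of large to small summed FPKM was 1.01, 0.967 and 0.999 in 8-cell embryos, 1.19, 1.14 and 1.17 in control morulae, and 1.16, 1.199 and 1.17 in KDM6A morulae. All 6 morula ratios were above all 3 8-cell ratios, while the 2 morula groups overlapped. The order held when the ratio was formed from medians over rows (0.719 to 0.797 in the morula libraries against 0.591 to 0.625), without paralogs (1.16 to 1.23 against 0.977 to 1.02), without rows of shared symbols (1.16 to 1.22 against 1.06 to 1.10) and without the highest row of each subunit (1.18 to 1.26 against 1.06 to 1.09). The ratio of medians was under 1 everywhere because the typical small subunit row was higher than the typical large subunit row, at 2018 against 1569 FPKM on average in control morulae.

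**Figure D1:**
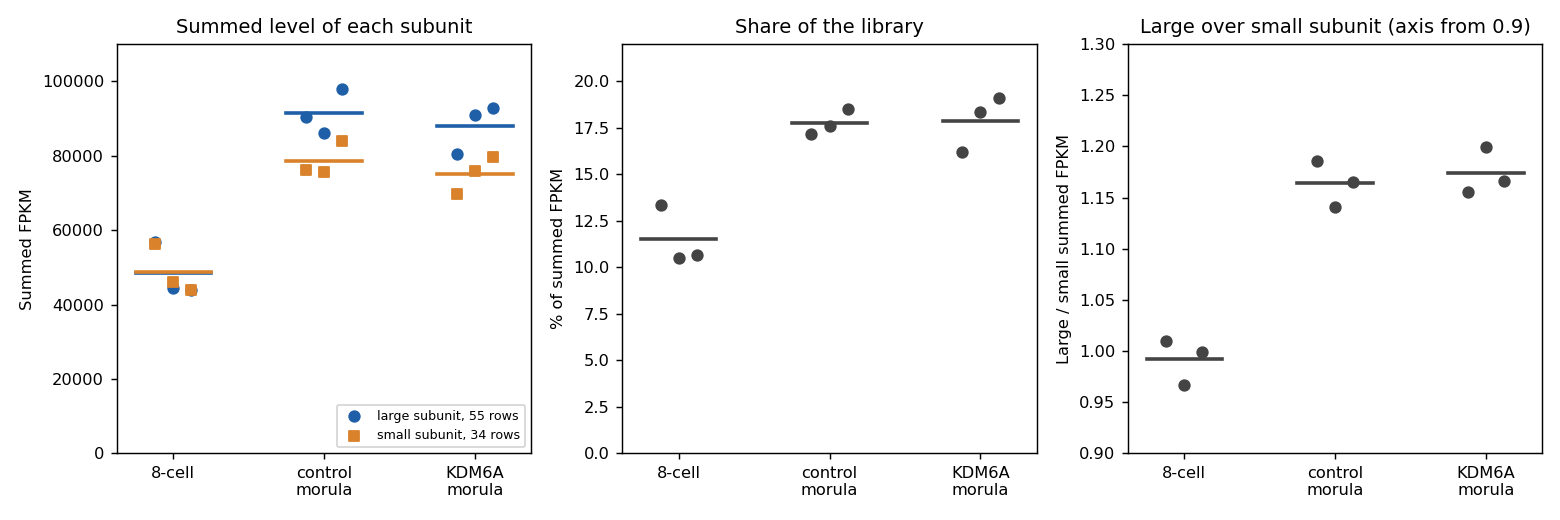
Summed FPKM of the large (circles) and small (squares) subunit rows, their share in percent of the summed FPKM of annotated rows listed in all 9 libraries, and the ratio of large to small sums, for each of the 9 libraries; lines are group means. The sums of both subunits nearly coincide in 8-cell embryos, and the large subunit lies above the small one in all 6 morula libraries.

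Within the 8-cell group replicate 1 stood above the others. Of 84 rows with a mean of at least 100 FPKM over the libraries, 73 were highest in replicate 1 among the 8-cell libraries, 10 in replicate 2 and 1 in replicate 3. Among the control morulae 57 of these rows were highest in replicate 3, and among the KDM6A morulae 48 were highest in replicate 3. The levels of the members were also more spread out in 8-cell embryos. The SD of log2(FPKM + 1) over the 84 rows was 1.13 ± 0.0523 (SD, n = 3) there, against 0.967 ± 0.0456 in control morulae and 0.971 ± 0.031 in KDM6A morulae, so the genes stood closer to one another in the morulae.

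The ranking of the genes by level differed between the stages below the top 2 places. RPS25, a protein of the small subunit head (its main row, row A, ENSBTAG00000027772.4), was the highest member in each group, with 6347, 5087 and 4671 FPKM in 8-cell embryos, 6922, 6845 and 7878 in control morulae and 5934, 6942 and 7952 in KDM6A morulae. RPS27A, made as a fusion with ubiquitin, ranked 2 in each group, at 3143 ± 193, 5052 ± 569 and 4440 ± 262 FPKM. RPS3, which lines the mRNA entry channel and also has a role in DNA repair, ranked 4 of 89 in control morulae and 55 in 8-cell embryos. RPL10, which is fitted late at the joining of the subunits, ranked 3 in control morulae and 16 in 8-cell embryos. RPS6, the protein phosphorylated by S6 kinase, went the other way, from rank 10 in 8-cell embryos to rank 53 in control morulae.

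Control morulae were compared with 8-cell embryos by limma on log2(FPKM + 1), with p-values adjusted by the Benjamini-Hochberg method over all genes tested and a threshold of 0.05. Of 88 members tested, 64 were higher in control morulae (72.7%), where 42.7% of all 10048 genes tested were higher. A further 5 members were lower (5.68%), where 27.1% of all genes were lower. By subunit, 42 of 54 large and 22 of 34 small subunit rows were higher. The median log2 fold change was 0.93 over the members, 1.03 over the large and 0.74 over the small subunit, beside 0.35 over all genes tested. With a control library left out, the median of all genes was 0.16, 0.18 and 0.21 (without replicates 1, 2 and 3). With an 8-cell library left out it was 0.48, 0.42 and 0.44, and the members' median ran from 0.85 to 1.08 over these fits. The filter of 1 FPKM in 3 libraries was kept there. Genes that reached it only in the group that lost a library dropped out, so these medians cover different genes. Without the filter the median of all genes was 0.05, and the members stood 0.87 above it. Quantile normalization brought the median of all genes to 0.07. Relative to the median of all genes, the members stood at 0.58 in the FPKM and at 0.47 after quantile normalization, and their calls became 55 higher (62.5%; 36.1% of all genes) and 15 lower (17.0%; 33.2% of all genes). The summed oocyte markers, mostly BTG4 in the 8-cell libraries, were far lower in every control morula than in any 8-cell library. Of 9 oocyte markers tested 8 were lower (88.9%; 27.1% of all genes). The part of the oocyte markers in these differences was not tested.

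KDM6A morulae, compared with the same 8-cell libraries, gave 64 members higher of 87 tested (73.6%; 41.1% of all 10024 genes tested) and 5 lower (5.75%; 25.6% of all genes). There 43 of 54 large and 21 of 33 small subunit rows were higher, and the medians were 1.03 for the large subunit, 0.69 for the small subunit and 0.34 for all genes. After quantile normalization the calls were 56 higher (64.4%; 34.3% of all genes) and 12 lower (13.8%; 31.5% of all genes). Both comparisons use the same 8-cell libraries, so they are not independent.

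**Figure D2:**
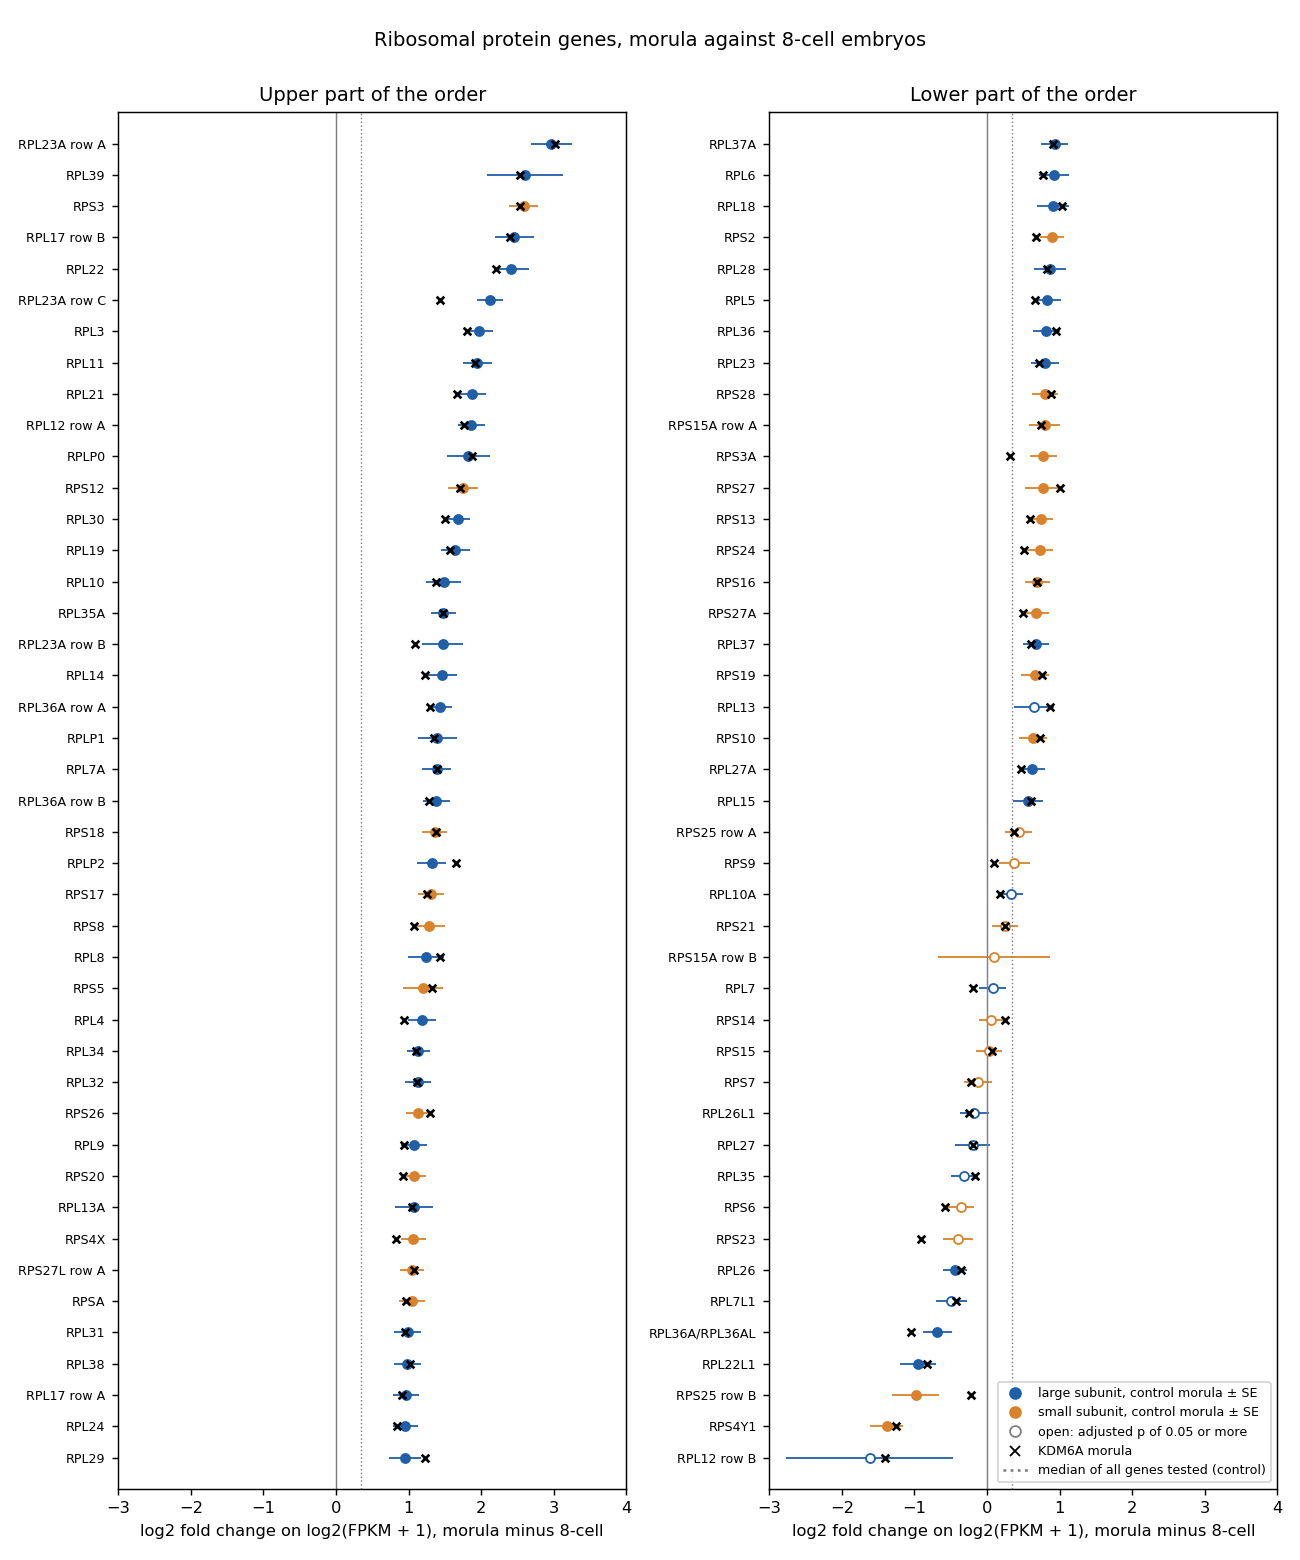
Log2 fold change on the log2(FPKM + 1) scale of 86 of the 88 tested member rows, morula minus 8-cell, in falling order for control morulae (circles ± SE, filled where the adjusted p is under 0.05) with KDM6A morulae as crosses. Most rows lie to the right of the dotted median of all genes (0.35), with RPL23A row A at the top and the paralogs RPS4Y1 and RPL22L1 among the lowest.

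Among the core genes of the large subunit, RPL3, which lies by the peptidyl transferase centre, stood at 338, 229 and 244 FPKM in 8-cell embryos, 1079.8, 1095 and 963 in control morulae and 1072, 967 and 797 in KDM6A morulae. The lowest morula library was above the highest 8-cell library. On the log2 scale the difference was 1.97 ± 0.19 (SE, with a limma adjusted p of 1.87e-05) for control and 1.81 ± 0.20 (2.58e-05) for KDM6A morulae. RPL5 and RPL11 bind 5S ribosomal RNA together and, when ribosome assembly fails, inhibit MDM2. RPL11 stood at 693, 448 and 472 FPKM in 8-cell embryos and 1919.9, 1950.4 and 2266 in control morulae, a log2 fold change of 1.95 ± 0.20 (adjusted p = 2.76e-05). RPL5 stood at 1308, 915 and 991 in 8-cell embryos and 1977, 1725 and 1952 in control morulae, a smaller log2 fold change of 0.83 ± 0.19 (adjusted p = 0.00285). For KDM6A morulae the values were 1.92 for RPL11 and 0.66 for RPL5, and the RPL5 call was lost there after quantile normalization (0.25, adjusted p = 0.152) and median-of-ratios scaling (0.40, adjusted p = 0.0701).

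The stalk of the large subunit, which recruits elongation factors, is built from RPLP0, RPLP1 and RPLP2, and all 3 were higher in morulae. RPLP0, its base, stood at 928, 367 and 550.3 FPKM in 8-cell embryos, 2192, 2014 and 1894 in control morulae and 2085, 2209.8 and 1992 in KDM6A morulae. The 8-cell libraries differed widely from one another, yet the highest was below every morula library. The log2 fold change was 1.82 ± 0.29 (adjusted p = 0.000362) for control and 1.87 ± 0.28 (0.000179) for KDM6A morulae. RPLP1 rose from a mean of 1078 ± 442 to 2687 ± 106 FPKM in control morulae, and RPLP2 from 332 ± 59.8 to 826 ± 125.

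The largest rises among the large subunit rows were in RPL23A, RPL39, RPL17 and RPL22. RPL23A, at the exit of the peptide tunnel where nascent chains meet the signal recognition particle, has 3 rows. Row A (ENSBTAG00000022278.2) stood at 565, 322 and 235 FPKM in 8-cell embryos and 2527, 2946 and 2787 in control morulae, 7.36-fold higher, with a log2 fold change of 2.97 ± 0.28 (adjusted p = 1.67e-05). Row C (ENSBTAG00000032022.2) stood at 86.5, 102 and 92.8 and rose to 493, 363 and 386, and row B (ENSBTAG00000046394.1) at 783, 375 and 396 rose to 1463, 1123 and 1508. The 3 rows thus moved the same way, by different amounts. RPL17 row B (ENSBTAG00000000425.4) rose 5.24-fold, from 151 ± 65.0 to 793 ± 46.4 FPKM, and row A (ENSBTAG00000022902.4) 1.94-fold, from 966 ± 144 to 1875 ± 182. RPL39, another tunnel protein, was far below the other core genes, at 5.80, 0.30 and 1.23 FPKM in 8-cell embryos and 12.7, 12.8 and 22.3 in control morulae, a log2 fold change of 2.60 ± 0.52 (adjusted p = 0.00143). Its row also bears an uncharacterized locus name in some libraries. Rows of near-identical sequence can share reads, and the sources used here do not say how such reads were assigned, so the split between rows of 1 symbol is uncertain.

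Among the small subunit genes RPS3 changed most. It stood at 995, 621 and 709.8 FPKM in 8-cell embryos, 4488, 4518 and 4719 in control morulae and 4538, 4230.4 and 4437 in KDM6A morulae. The 6 morula libraries were tightly grouped, 5.90-fold (control) and 5.68-fold (KDM6A) above the 8-cell mean, with log2 fold changes of 2.59 ± 0.20 (adjusted p = 5.73e-06) and 2.53 ± 0.19 (2.36e-06). RPSA, the protein also described as a laminin receptor, rose from 893, 646 and 717 to 1594, 1615 and 1413 in control morulae, a log2 fold change of 1.04 ± 0.18 (adjusted p = 0.000566). RPS19, mutated in Diamond-Blackfan anaemia, stood at 2409, 1806 and 1664 in 8-cell embryos and 3269, 2779 and 3133 in control morulae. Its log2 fold change of 0.66 ± 0.19 (adjusted p = 0.0114) did not pass without 8-cell replicate 3 (0.55, adjusted p = 0.0514), after quantile normalization (0.21, adjusted p = 0.220) or after median-of-ratios scaling (0.38, adjusted p = 0.1003). RPS6 stood at 2226, 1952 and 1620.2 in 8-cell embryos and 1447, 1417 and 1620.4 in control morulae, where the ranges met and the test did not pass (-0.36 ± 0.18, adjusted p = 0.0977). In KDM6A morulae RPS6 stood at 1150.0, 1346 and 1356 and was lower than in 8-cell embryos (-0.58 ± 0.17, adjusted p = 0.0119), a call that did not pass without KDM6A replicate 1 (adjusted p = 0.0529). The control difference also passed once the libraries were rescaled to the same total (-0.54, adjusted p = 0.0143).

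A set of 15 rows passed in neither stage comparison. Besides RPL12 row B, which ran from 0 to 80.5 FPKM across the 9 libraries, they include RPL7, RPL7L1, RPL10A, RPL26L1, RPL27 and RPL35 of the large subunit and RPS7, RPS9, RPS14, RPS15, RPS21 and RPS25 row A of the small subunit. Without RPL12 row B the log2 fold changes of the set ran from -0.49 to 0.44 in control and from -0.43 to 0.37 in KDM6A morulae. RPS15 stood at 2606, 2794 and 2284 FPKM in 8-cell embryos, 2587, 2326 and 2950.3 in control morulae and 2378, 2809 and 2842 in KDM6A morulae, so the 3 groups overlapped. RPL7 stood at 3035, 3158 and 2306 in 8-cell embryos and 2964, 2734 and 3206 in control morulae, and ranked 3 at the 8-cell stage and 17 in control morulae. RPS15 ranked 4 at the 8-cell stage.

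RefSeq places the symbols of 5 rows on the X chromosome: RPL10, RPL39, RPS4X and both RPL36A rows. Linkage was read by symbol, not by gene identifier. Both RPL36A rows thus take the placement of 1 symbol, and the RPL39 row also bears a locus name, so the linkage of these rows is uncertain. All 5 were called higher in both morula groups, as were most members (72.7% of those tested in control and 73.6% in KDM6A morulae). The calls therefore do not set these rows apart. RPL10 rose from 2196, 1145 and 1832 FPKM to 4289, 4888 and 4835 in control morulae, and RPS4X from 1625, 1423 and 1254 to 2901, 2774 and 3316.

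Several paralogs ran opposite to the genes they resemble. RPL22L1 is the close relative of RPL22, and RPL22 is known to hold its mRNA down. RPL22 rose from 88.8, 67.0 and 45.6 FPKM in 8-cell embryos to 303, 367 and 386 in control morulae (log2 fold change 2.42 ± 0.25, adjusted p = 2.29e-05), while RPL22L1 went from 548, 761 and 488 to 409, 229 and 301 (-0.95 ± 0.25, adjusted p = 0.00668). RPL22L1 over RPL22 was 6.17, 11.4 and 10.7 in 8-cell embryos, 1.35, 0.623 and 0.780 in control morulae and 0.942, 1.08 and 1.28 in KDM6A morulae. Both morula groups lay wholly below the 8-cell group, and a two-sided exact permutation test gave p = 0.1 for each, the smallest that 3 against 3 libraries allow (0.3 after Benjamini-Hochberg adjustment over 18 comparisons of 6 pairs).

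RPS4Y1, named so in the 8-cell tables and not placed on the X chromosome by RefSeq, and the X-linked RPS4X showed the same arrangement. RPS4Y1 stood at 1565, 1335 and 1721 FPKM in 8-cell embryos, 808, 452 and 555 in control morulae and 626, 659.6 and 647 in KDM6A morulae, with log2 fold changes of -1.38 ± 0.23 (adjusted p = 0.000438) and -1.25 ± 0.16 (7.18e-05). Its ratio to RPS4X was 1.09 ± 0.244 (SD, n = 3) in 8-cell embryos, 0.203 ± 0.0654 in control morulae and 0.255 ± 0.032 in KDM6A morulae, without overlap between stages (exact permutation p = 0.1 for each, 0.3 adjusted). The row named both RPL36A and RPL36AL (ENSBTAG00000025564.1) fell from 2011, 1883 and 1641 to 1017, 1009 and 1451 in control morulae (-0.69 ± 0.20, adjusted p = 0.0105), whereas RPL36A row A (ENSBTAG00000019253.4) rose from 1095, 967 and 979 to 2729, 2528 and 2987. Their ratio was 1.82 ± 0.136 in 8-cell embryos, 0.419 ± 0.0592 in control morulae and 0.361 ± 0.051 in KDM6A morulae (exact permutation p = 0.1 for each stage comparison, 0.3 adjusted).

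The other pairs did not separate the stages. RPL26L1 over RPL26 was 0.379 ± 0.0204 in 8-cell embryos and 0.465 ± 0.112 in control morulae, RPL7L1 over RPL7 was 0.226 ± 0.0635 and 0.150 ± 0.0301, and RPS27L row A over RPS27 was 0.570 ± 0.158 and 0.677 ± 0.0532, with overlapping libraries in each case. RPS27L rose with RPS27, from 985, 935 and 892 FPKM to 1809.8, 1852 and 2172 in control morulae. RPL26 was lower in control morulae (-0.44 ± 0.17, adjusted p = 0.0376), a call that held without control replicate 3 and was lost when any other library was left out (adjusted p from 0.0557 to 0.124). RPS25 row B (ENSBTAG00000018987.1) was lower in control morulae at 1.13, 0.84 and 0.51 FPKM against 4.01, 3.32 and 1.12, a call that did not pass when control replicate 2, control replicate 3, 8-cell replicate 1 or 8-cell replicate 2 was left out (adjusted p from 0.0634 to 0.0981). RPL10L, a testis relative of RPL10, did not reach 1 FPKM in any library, and RPS15A row B ran from 0 to 7.27.

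Control replicate 1 held the highest control value of RPL22L1, RPS4Y1, RPL7L1 and RPL26L1, as it did for 21 of the 84 rows counted above. The RPL36A and RPL36AL row was highest in control replicate 3, and RPS27L row A was lowest in control replicate 1. The oocyte marker sum of control replicate 1, 504 FPKM with 374 from BTG4, was above the 38.7 and 141 of the other controls. A link between these values was not tested. Without control replicate 1 RPS4Y1 was still lower than in 8-cell embryos (-1.61, adjusted p = 0.000229), as was RPL22L1 (-1.16, adjusted p = 0.00314).

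**Figure D3:**
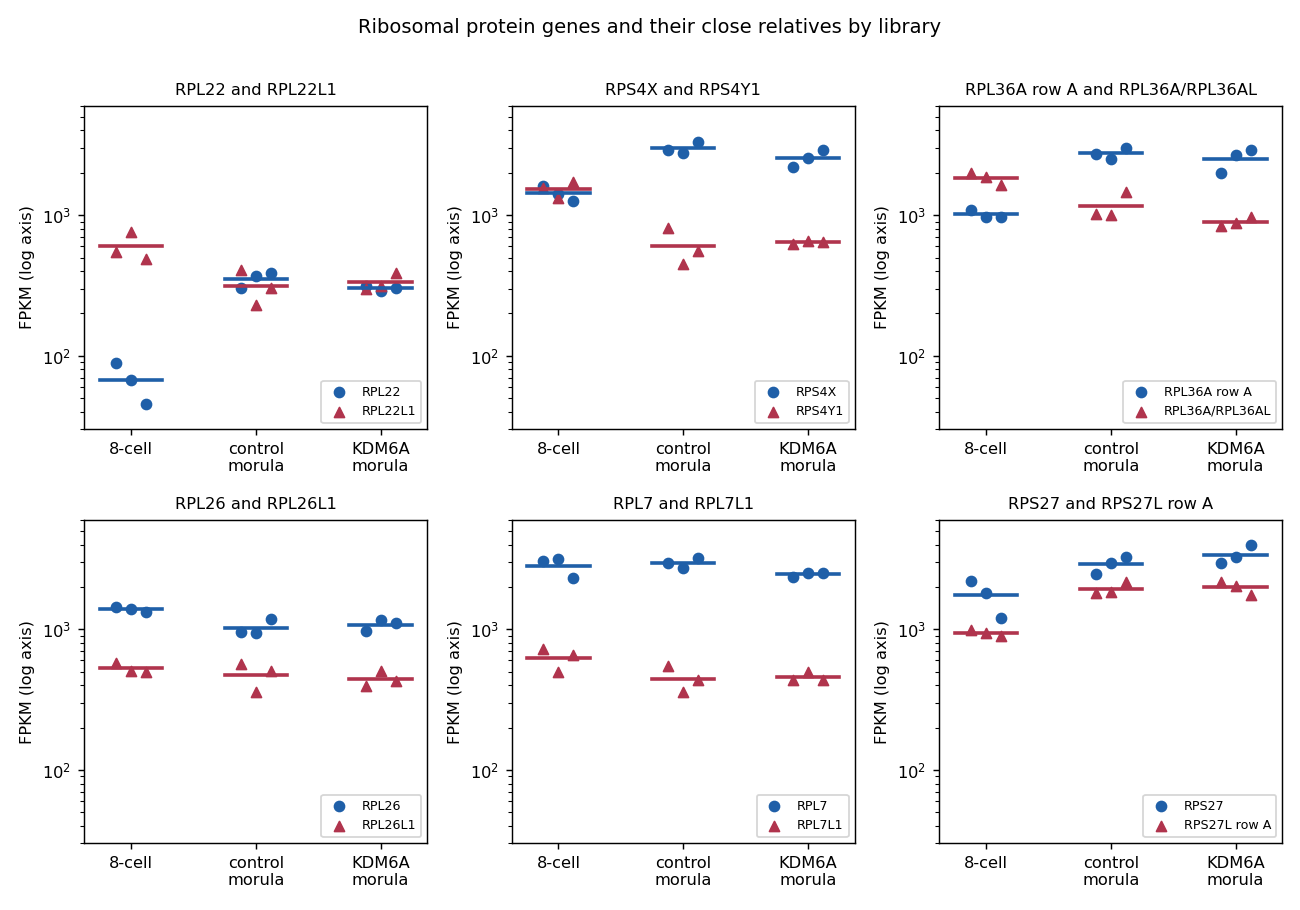
FPKM on a log axis of 6 ribosomal protein genes (circles) and their relatives (triangles) in each library, with group means as lines. In the upper row the relative lies above or level with its partner in 8-cell embryos and, apart from RPL22L1, below it in every morula library; in the lower row the order is the same at both stages.

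KDM6A morulae were then compared with the uninjected control morulae, a contrast in which the mRNA and the act of injection cannot be told apart. None of 89 members tested passed the adjusted threshold by limma, while 0.123% of all 9777 genes tested were higher (12 genes) and 0.0409% were lower (4 genes). These counts rest on the libraries: without KDM6A replicate 1, 3.8% of all 9596 genes tested were higher (365 genes) and 3.75% were lower (360 genes), beside 0 members higher and 1 lower (1.12%). With each other library left out in turn, from 1 to 15 genes were higher and from 0 to 2 lower. At an unadjusted p under 0.05 there was 1 member higher (6.31% of all genes were) and 6 were lower (6.41% of all genes were), which for the members is 1.12% and 6.74%. The median log2 fold change was -0.06 over the members, the same to 2 decimals in the large (-0.06) and small (-0.06) subunit, beside -0.01 over all genes. The sign of the members' median depended on scaling and on 1 library, at 0.0075 on the TPM scale, 0.0024 when scaled to the other genes, 0.0092 after quantile normalization and 0.014 without KDM6A replicate 1. The members' median minus that of all genes was -0.044, and it turned to 0.016 after quantile normalization, 0.054 without KDM6A replicate 1 and 0.034 without control replicate 3. Of all 89 members 30 were above 0, against 49 on the TPM scale, 47 when scaled to the other genes, 47 after quantile normalization and 48 without KDM6A replicate 1. Of the 86 members with a control mean of at least 100 FPKM, 75 differed by less than 0.25 on the log2 scale, and their log2 fold changes ran from -0.69 to 0.34 with a median SE of 0.13. Libraries of the 2 groups did not overlap for 13 members lower in KDM6A morulae (14.6%; 8.61% of all genes) and 2 higher (2.25%; 7.1% of all genes).

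The member with the smallest p was RPS3A, a small subunit protein at the mRNA exit. It stood at 3427, 3245 and 3639.6 FPKM in control morulae and 2478, 2554 and 2491 in KDM6A morulae. The groups were well apart, and the KDM6A values were close to one another. The log2 fold change was -0.45 ± 0.10 with an adjusted p of 0.146 by limma, so it did not pass. RPS3A ranked 8 in control morulae and 25 in KDM6A morulae. RPS23, a decoding centre protein, stood at 1126, 1031 and 1336 in control and 726, 836 and 894 in KDM6A morulae (-0.50 ± 0.14, adjusted p = 0.248). For both genes every KDM6A library was below every control library.

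RPL23A row C stood at 493, 363 and 386 FPKM in control and 357, 266 and 174 in KDM6A morulae (-0.69 ± 0.24, limma adjusted p = 0.298), and it passed only when KDM6A replicate 1 was left out (-0.93, adjusted p = 0.0293), the fit in which calls rose across all genes. RPL23A row B (-0.38 ± 0.15), RPL7 (-0.27 ± 0.11) and the RPL36A and RPL36AL row (-0.36 ± 0.16) had the next smallest p among lower members, with adjusted p from 0.337 to 0.377. On the higher side stood RPS25 row B (0.76 ± 0.23, adjusted p = 0.281), at 1.13, 0.84 and 0.51 FPKM in controls and 1.53, 2.10 and 2.68 in KDM6A morulae. Next by p among those shown were RPLP2 (0.34 ± 0.17), RPS27 (0.23 ± 0.14), RPL29 (0.27 ± 0.17) and RPL13 (0.22 ± 0.14), with adjusted p from 0.425 to 0.536 and overlapping libraries.

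**Figure D4:**
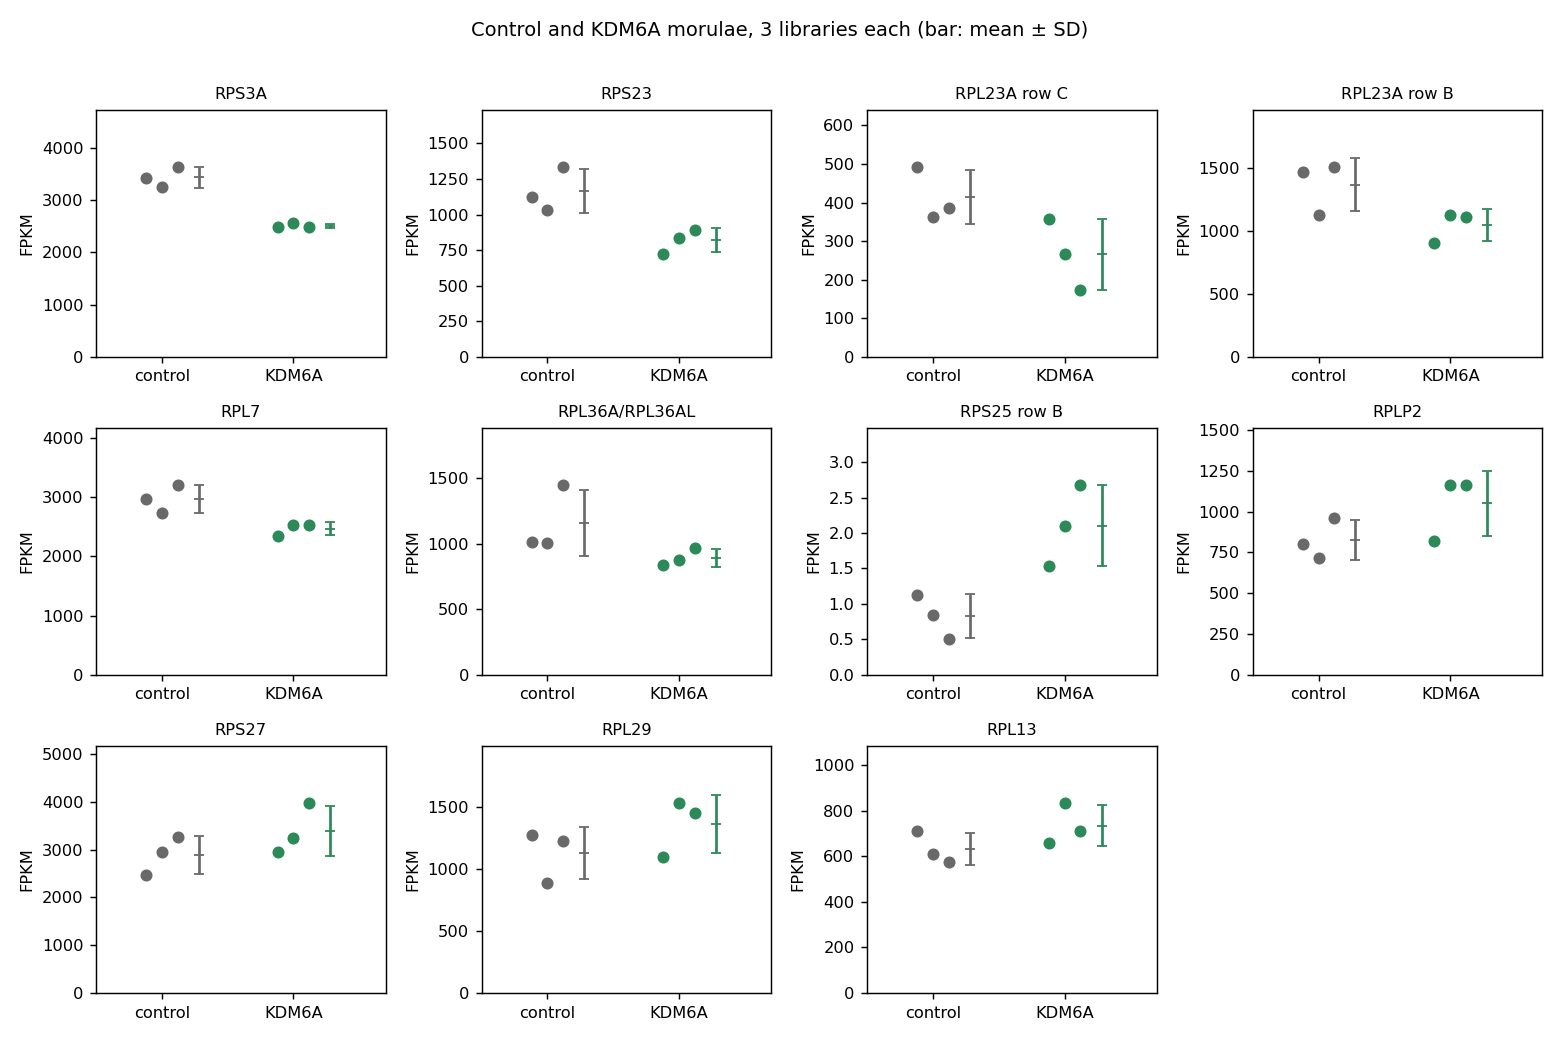
FPKM of 11 members, 6 lower and 5 higher and among those with the smallest unadjusted p, in control and KDM6A morulae; points are libraries and bars the mean ± SD (n = 3). RPS3A and RPS23 lie lower in all 3 KDM6A libraries, and no member passed the adjusted threshold.

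The genes always described showed small differences between the morula groups. RPS3 differed by -0.06 ± 0.10, RPL11 by -0.03 ± 0.12 and RPLP0 by 0.04 ± 0.11 on the log2 scale, and the sign of each turned under at least 1 other scaling or left-out library. RPL3 differed by -0.15 ± 0.14, RPL5 by -0.16 ± 0.12, RPSA by -0.08 ± 0.12, RPS6 by -0.22 ± 0.12 and RPS19 by 0.10 ± 0.13, with limma adjusted p from 0.467 to 0.822. RPS29, a zinc-binding protein of the small subunit head listed only in the morula tables, stood at 1719, 2422 and 2250.4 in control and 1878, 2232 and 2388 in KDM6A morulae. The second RPS27L row stood at 204, 176 and 240.3 and at 183, 198 and 162.

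Related gene lists were read against the 42.7% of all genes called higher and the 27.1% called lower in control morulae, with a median of 0.35. Of 58 small subunit assembly factors tested, 9 were higher (15.5%) and 32 lower (55.2%) than in 8-cell embryos, with a median log2 fold change of -0.75. Those with the smallest p were DIMT1, the methylase of small subunit ribosomal RNA (304 ± 43.4 to 69.9 ± 11.1 FPKM), NAT10, its acetylase (51.5 ± 5.24 to 11.9 ± 1.44), and DCAF13 (326 ± 51.5 to 74.3 ± 25.2). Of 56 large subunit assembly factors, 13 were higher (23.2%) and 18 lower (32.1%, near the share of all genes; median -0.07), with BRIX1 falling from 1318 ± 154 to 331 ± 73.8, RRP15 from 278 ± 12.4 to 72.3 ± 18.8, and BOP1 rising from 1.57 ± 0.437 to 10.1 ± 1.23. Among 27 snoRNP and nucleolar scaffold genes 5 were higher (18.5%) and 10 lower (37.0%; median -0.19). NPM1, the major nucleolar phosphoprotein, fell from 2572 ± 649.9 to 970.3 ± 250.5, and NHP2 and NUFIP1 fell as well.

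RNA polymerase I, which transcribes ribosomal RNA, had 3 of its 16 tested genes higher (18.8%) and 6 lower (37.5%; median -0.07). Its selectivity factors TAF1A (130.3 ± 9.94 to 26.6 ± 5.86 FPKM) and TAF1B (69.5 ± 6.67 to 18.5 ± 3.81) and its subunit TWISTNB were the members with the smallest p, all lower. Chaperones and importers of ribosomal proteins had 9 higher (50%) and 3 lower (16.7%) of 18 (median 0.53), with TSR2, the RPS26 chaperone, rising from 27.5 ± 12.8 to 88.6 ± 14.96, the importin KPNB1 rising from 3.03 ± 1.06 to 11.4 ± 1.15, and BCCIP falling from 402 ± 50.5 to 186 ± 19.8. Of 15 surveillance and stress genes 4 were higher (26.7%) and 8 lower (53.3%; median -0.69). EDF1, a sensor of collided ribosomes, rose from 18.7 ± 3.52 to 119 ± 13.8, and NEMF, a factor that acts on stalled ribosomes, fell from 52.6 ± 5.93 to 19.7 ± 1.502.

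Genes whose mRNAs share the TOP motif held calls in both directions. Of 19 other TOP genes tested, 8 were higher (42.1%, near the 42.7% of all genes) and 3 lower (15.8%; median 0.44), led by the elongation factors EEF1A1 (559.7 ± 198 to 1961 ± 73.6 FPKM) and EEF1G (44.2 ± 25.2 to 189 ± 11.7) and by EIF3F (58.4 ± 12.8 to 194 ± 8.21). Of 18 genes that control TOP translation, 10 were higher (55.6%) and 6 lower (33.3%; median 0.90). LARP1B fell from 179 ± 4.76 to 29.4 ± 3.92 and LARP4 from 98.1 ± 21.6 to 18.1 ± 4.84, while EIF4EBP2 rose from 1.26 ± 0.516 to 10.95 ± 0.28. The ribosomal components that the symbol rule does not reach gave 1 call of 3, RACK1 (848 ± 295 to 1757 ± 110.3), while FAU (3188 ± 465 to 3404 ± 685, adjusted p = 0.736) did not pass.

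Mitochondrial ribosomal proteins, which serve the organelle's own translation, were mostly higher in morulae. Of 77 tested, 47 were higher (61.0%) and 6 lower (7.79%) in control morulae (median 0.89), with MRPL54 (2.25 ± 1.27 to 42.9 ± 2.73 FPKM), MRPL10 (3.31 ± 1.29 to 39.8 ± 5.70) and MRPS18A (22.4 ± 9.16 to 193 ± 36.5) showing the smallest p. Between KDM6A and control morulae none of these lists had a gene past the adjusted threshold.

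**Figure D5:**
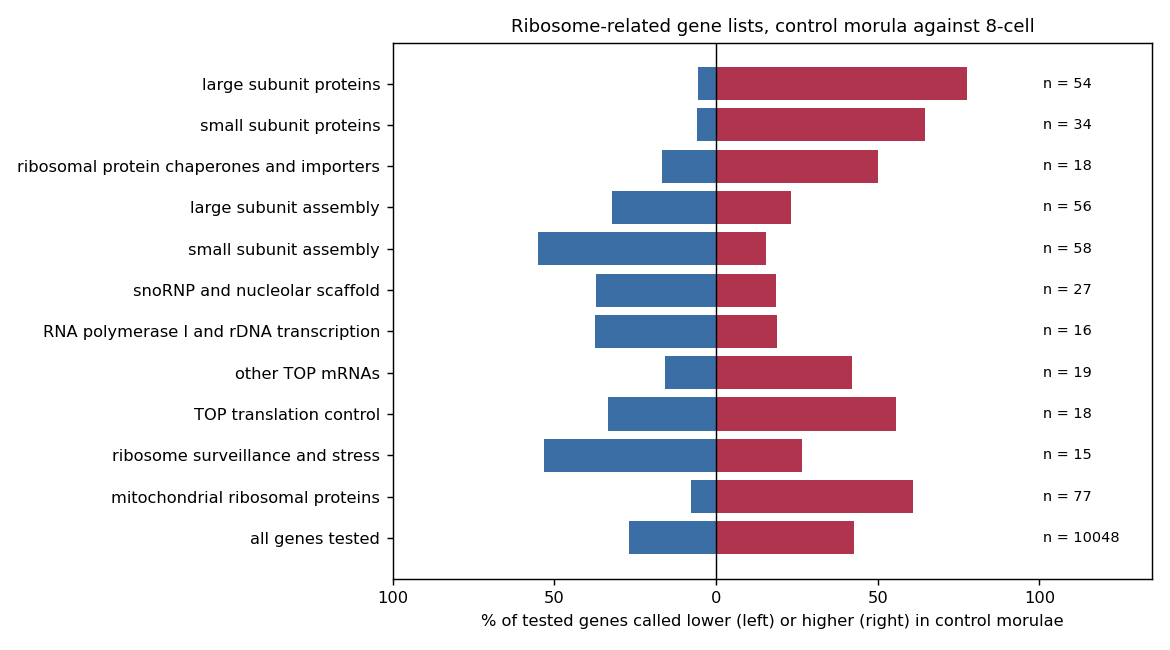
Percent of tested genes called higher (right) or lower (left) in control morulae than in 8-cell embryos, by limma with an adjusted p under 0.05, for both subunits and for related lists of at least 15 tested genes, with all genes tested at the bottom. Both subunits show few lower calls, while small subunit assembly factors and surveillance genes show more lower than higher calls.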

How the data were processed

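RNA-seq of 9 libraries of cloned embryos was used. The submitters' processing notes name RSEM 1.2.12, Bowtie2 2.2.5, StringTie 1.0.4, HISAT 0.1.6 and bcl2fastq 2.16, and the build UMD3.1. What each tool did, and how multiply mapping reads were treated, is not stated there. The authors deposited FPKM per gene, 1 table per library, rounded to 2 decimals. Depth is unknown: low values showed no steps of whole reads (at most 8.61% of ratios in 1 bin, over 36 library pairs), so precision comes from the spread of 3 libraries. No 2 libraries held identical values.

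Tables were joined by gene identifier (16129 rows in all 9). In control replicate 1, 3038 rows without an annotated gene were left out. Genes reaching 1 FPKM in 3 or more of a comparison's 6 libraries were tested with limma 3.58.1 (R 4.3.3; trended prior) on log2(FPKM + 1), which understates changes of low genes; folds are ratios of mean FPKM. The test was checked on simulated data with the spread of each gene, in which 200 genes were changed by 1 or 2 log2 units. Changes of 1 unit were called for 48% of genes between KDM6A and control morulae. Against 8-cell embryos they were called for 37% in control and 24% in KDM6A morulae. For changes of 2 units the shares were 91%, 85% and 80%. Between the morula groups many changes of 1 unit can thus be missed. For the stage comparisons the shares do not carry over. There 42.7% of genes were called higher and 27.1% lower in control morulae, and the adjustment is stricter when only 200 genes change. The changed genes were drawn from all genes above a low level, so the shares are not those of the members. Tables and figures used Python 3.11.15, pandas 2.3.3, numpy 2.4.6, scipy 1.17.1 and matplotlib 3.10.9.

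Members, lists and tests were chosen with earlier results of these data known. Named are 8 fixed genes (RPL3, RPL5, RPL11, RPLP0, RPSA, RPS3, RPS6, RPS19), per comparison the 6 largest rises and 6 largest falls among called members (places left over go to the smallest p, as values only), paralogs and shared-symbol rows by level, up to 3 genes of smallest p per list, and other members by level. Symbols were matched to RefSeq (ARS-UCD2.0; 82 of 83 found) for X linkage only; no coordinates are given because the builds differ. Alternatives were pseudocounts of 0.1 and 0.5, other filters, 4 scalings, all 9 libraries in 1 fit, a replicate block, a robust prior, summed rows of 1 symbol and each library left out. Some genes that these rules name are not reported here, in the text or the figures, though counts and medians include them.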

Additional observations from a re-analysis of the deposited data

How the results depend on the processing

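The large count of members higher in morulae kept within 1.5 times its value under every alternative run, from 55 (quantile normalization) to 68 (without 8-cell replicate 1) for control morulae and from 53 (median-of-ratios scaling) to 67 for KDM6A morulae. Of the 64 calls, 60 were kept in every leave-one-out fit for control morulae and 58 for KDM6A morulae, and 53 and 52 were kept under all 4 scalings. The count of lower members depended on scaling. For control morulae it was 5, and 9 on the TPM scale, 15 after quantile normalization and 9 after median-of-ratios scaling; with a library left out it ran from 3 to 5, with 3 without control replicate 2 or 8-cell replicate 1. For KDM6A morulae it was 5, and 12 after quantile normalization and 10 after median-of-ratios scaling. These scalings moved all genes as well. For control morulae the median of all genes went from 0.35 to 0.19 (TPM), 0.07 (quantile) and 0.10 (median-of-ratios). After quantile normalization 33.2% of all genes were lower, against 27.1% before. For KDM6A morulae the median went from 0.34 to 0.07 and 0.11. Shares of all genes under the other stage alternatives are not given, so those member counts have no background beside them. Against control morulae, KDM6A morulae had 0 lower members, and from 0 to 1 with a library left out, the 1 being RPL23A row C without KDM6A replicate 1 (1.12% of members, where 3.75% of all genes were lower and 3.8% higher). Over all genes the 12 higher and 4 lower calls became 1 and 0 with the replicate block, and ran from 1 to 365 higher and from 0 to 360 lower with a library left out. The large to small ratio in control morulae, KDM6A morulae and 8-cell embryos was 0.777, 0.757 and 0.604 from medians and 1.22, 1.23 and 1.07 without the highest row of each subunit. It was 1.19 in control and 1.199 in KDM6A morulae without paralogs, and 1.201 in KDM6A morulae and 1.08 in 8-cell embryos without rows of shared symbols.

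Signs turned in the comparison of KDM6A with control morulae, where differences were near 0. RPL11 became 0.0365 on the TPM scale and 0.0313 when scaled to the other genes, and with a library left out it ran from -0.0705 (without control replicate 1) to 0.049 (without control replicate 3), with 0.0136 without KDM6A replicate 1. RPLP0 ran from -0.00495 (without control replicate 3) to 0.1001 (without control replicate 1). RPS3 became 0.00748 on the TPM scale, 0.00236 when scaled to the other genes and 0.0589 after quantile normalization. RPL7L1 against 8-cell embryos passed under 8 alternatives for control morulae. The replicate numbers share only a number: same-numbered KDM6A and control libraries correlated at -0.21, -0.22 and 0.13 in their deviations. With the replicate block, 65 members were higher and 5 lower for control morulae, 63 and 5 for KDM6A morulae, and 0 and 0 between morula groups. RPL26 did not pass with the block (adjusted p = 0.0601). Unknown depth limits what can be said of rows under a few FPKM, such as RPS25 row B and RPL39.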
